A study of Mus musculus with 16 samples.

Results

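The neutrophil genes S100a8, S100a9, Csf3r, Retnlg, Ngp, Camp, Ltf and Mmp9 were followed in the kidneys of mice that lacked the inhibitory Fc receptor gene Fcgr2b, the DNA-sensing adaptor STING, both or neither. Members were found by the RefSeq transcript that the scanner files give for each probe, and all 8 of the 8 genes had a named probe, among 22907 genes named on the array. RNA of the whole kidney of 1 mouse was hybridized to each of 16 one-color Agilent arrays, with 4 mice in each of 4 genotypes and an age of 6 months in every label. The wild-type mice were C57BL/6 without either mutation. The Fcgr2b-/- mice, labelled as the lupus mice, were of the strain 129/C57BL/6, and the heatmap headings of the study give the same animals 1 Goldenticket allele of Sting (wt/gt). Mice that carried Fcgr2b-/- with Sting gt/gt, called double-deficient here, were also 129/C57BL/6, whereas those with Sting gt/gt alone were C57BL/6. The Fcgr2b genotype and the strain background therefore cannot be told apart. Per the methods of the study the wild-type mice were bought, and 2 mutant lines from other laboratories were crossed to give the double-deficient mice and their littermates; whether the arrayed single mutants were such littermates is not given. Both mutations are germline and so not confined to a cell type. In RNA of a whole organ, fewer cells of a type and less RNA per cell cannot be told apart.

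Neutrophils are short-lived granulocytes that are made in bone marrow under the growth factor G-CSF, circulate in blood, and enter inflamed tissue, where they release granules filled in successive stages of their development. The cytosol holds the alarmin S100A8/S100A9, the late granules hold antimicrobial proteins and a gelatinase, and transcripts of many granule proteins are made mainly in bone marrow and are scarce in circulating cells. In lupus nephritis neutrophils enter glomeruli that bear immune complexes and are a source of nuclear material taken up by other cells.

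A level is given throughout as the log2 signal of a probe minus the 75th percentile of its array, so that 0 is that percentile and a step of 1 is 2-fold. Levels of different probes are not set against each other. A probe was well above background where the scanner software marked it so. S100a8, S100a9 and Csf3r were well above background on 16 of 16 arrays, Camp and Ltf on 12, Retnlg on 9, Mmp9 on 3 and Ngp on 0. A test was run where a probe was well above background on at least 4 arrays, which left 6 of the 8 genes. S100a8, S100a9 and Csf3r are therefore measured on every array, whereas Camp, Ltf and Retnlg were dim on some. The signal of Fcgr2b itself lay between 0.02 and 0.70 in Fcgr2b-/-, between -0.40 and 0.50 in double-deficient, between 1.14 and 2.13 in wild-type and between -0.19 and 1.54 in Sting gt/gt kidneys. All 8 Fcgr2b-deficient mice were below all 4 wild-type mice, and Sting gt/gt replicate 4 lay within their range.

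The levels of S100a8, S100a9 and Retnlg moved together from array to array, and that of Csf3r did not, so the promoters of these 4 genes are shown. Each run covers 250 bases before and 50 bases after the RefSeq transcript start in GRCm38.p6, written 5′ to 3′ on the strand of the gene, and capitals mark matches on either strand to TATAAA (the TATA box), GAGGAA (a purine-rich core bound by the Spi1 protein) or TTNNGNAA (a loose form of the C/EBP site).
S100a8, chr3:90668821-90669120, plus strand: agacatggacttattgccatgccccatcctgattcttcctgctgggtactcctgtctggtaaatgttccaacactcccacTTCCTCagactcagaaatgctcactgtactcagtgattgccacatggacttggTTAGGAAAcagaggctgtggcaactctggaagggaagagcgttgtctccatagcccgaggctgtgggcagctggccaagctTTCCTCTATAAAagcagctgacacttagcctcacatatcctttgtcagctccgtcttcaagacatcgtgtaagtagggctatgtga
S100a9, chr3:90695672-90695971, minus strand: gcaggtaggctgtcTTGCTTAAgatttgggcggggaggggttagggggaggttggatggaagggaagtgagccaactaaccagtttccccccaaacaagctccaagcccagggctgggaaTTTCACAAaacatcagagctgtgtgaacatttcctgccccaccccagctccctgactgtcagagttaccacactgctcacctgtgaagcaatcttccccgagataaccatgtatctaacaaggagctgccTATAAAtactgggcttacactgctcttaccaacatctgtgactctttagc
Retnlg, chr16:48872358-48872657, plus strand: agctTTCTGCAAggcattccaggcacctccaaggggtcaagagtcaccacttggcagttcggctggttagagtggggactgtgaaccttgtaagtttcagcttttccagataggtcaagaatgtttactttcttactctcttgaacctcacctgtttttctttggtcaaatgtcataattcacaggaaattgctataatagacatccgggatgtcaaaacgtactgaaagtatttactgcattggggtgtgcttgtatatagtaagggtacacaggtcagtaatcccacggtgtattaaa
Csf3r, chr4:126024409-126024708, plus strand: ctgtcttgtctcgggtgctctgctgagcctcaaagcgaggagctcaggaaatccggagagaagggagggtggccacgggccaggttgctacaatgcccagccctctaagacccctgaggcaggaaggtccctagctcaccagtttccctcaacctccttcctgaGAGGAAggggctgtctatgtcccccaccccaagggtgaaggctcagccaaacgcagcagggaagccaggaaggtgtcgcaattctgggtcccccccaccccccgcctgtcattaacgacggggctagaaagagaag

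The S100a8 window held 1 TATAAA at position -30 from the annotated start, 2 matches to GAGGAA read on the opposite strand as TTCCTC, and 1 match to TTNNGNAA. One of those GAGGAA matches lies directly against the TATAAA, so that both appear as a single run of capitals. The S100a9 window held 1 TATAAA, which begins at the annotated start itself, 0 matches to GAGGAA and 2 to TTNNGNAA. Retnlg had 1 match to TTNNGNAA and Csf3r had 1 to GAGGAA. Among 32851 mouse promoters of this length, TATAAA occurred in 13.6%, GAGGAA in 28.3% and TTNNGNAA in 40.7%, so the last 2 are common letters. Of the other neutrophil genes, Ltf had 1 GAGGAA and 2 TTNNGNAA, Ngp had 3 TTNNGNAA, and Camp had 0 of any. No promoter of Mmp9 is shown.

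S100a8 and S100a9 encode the 2 subunits of calprotectin, the calcium- and zinc-binding alarmin that makes up much of the protein of the neutrophil cytosol. In wild-type kidneys S100a8 stood at 0.98, -1.30, -1.47 and -1.82 in replicates 1 to 4. In Fcgr2b-/- kidneys it stood at 2.90, -1.67, -0.13 and 1.15. In double-deficient kidneys the values were -1.05, -0.12, -0.18 and -0.53, and in Sting gt/gt kidneys -0.46, -2.63, -0.55 and -2.79. The highest mouse of all was Fcgr2b-/- replicate 1, followed by Fcgr2b-/- replicate 4 and wild-type replicate 1. Fcgr2b-/- replicates 2 and 3 lay within the range of the wild-type mice. The 16 arrays spanned 51.9-fold.

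S100a9 was highest in the same 3 mice, with wild-type replicate 1 above Fcgr2b-/- replicate 4. Its wild-type levels were 2.72, 0.35, 0.04 and -0.18, and its Fcgr2b-/- levels were 4.62, -0.27, 1.46 and 2.51. The double-deficient levels were 0.41, 1.49, 1.42 and 1.04, and the Sting gt/gt levels were 1.30, -1.22, 1.32 and -0.64. Here the span over the 16 arrays was 57.4-fold. For both subunits the 4 double-deficient mice lay closest together, with an SD of 0.43 for S100a8 and 0.49 for S100a9, against 1.94 and 2.04 in the Fcgr2b-/- mice, 1.27 and 1.34 in wild-type and 1.28 and 1.31 in Sting gt/gt. The difference between these spreads was not tested.

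Genotype means of S100a8 fell in the order Fcgr2b-/- (0.56), double-deficient (-0.47), wild-type (-0.90) and Sting gt/gt (-1.61), and those of S100a9 in the same order, at 2.08, 1.09, 0.73 and 0.19. Neighbors in this order overlapped. S100a8 was 1.47 ± 0.86 (log2 change ± SE, n = 4 and 4) higher in Fcgr2b-/- than in wild-type kidneys by limma, with an adjusted p of 1.0 over all probes tested and a 95% interval from -0.36 to 3.29. S100a9 was 1.35 ± 0.90 higher, with an interval from -0.57 to 3.26. Both intervals hold 0.

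**Figure D1:**
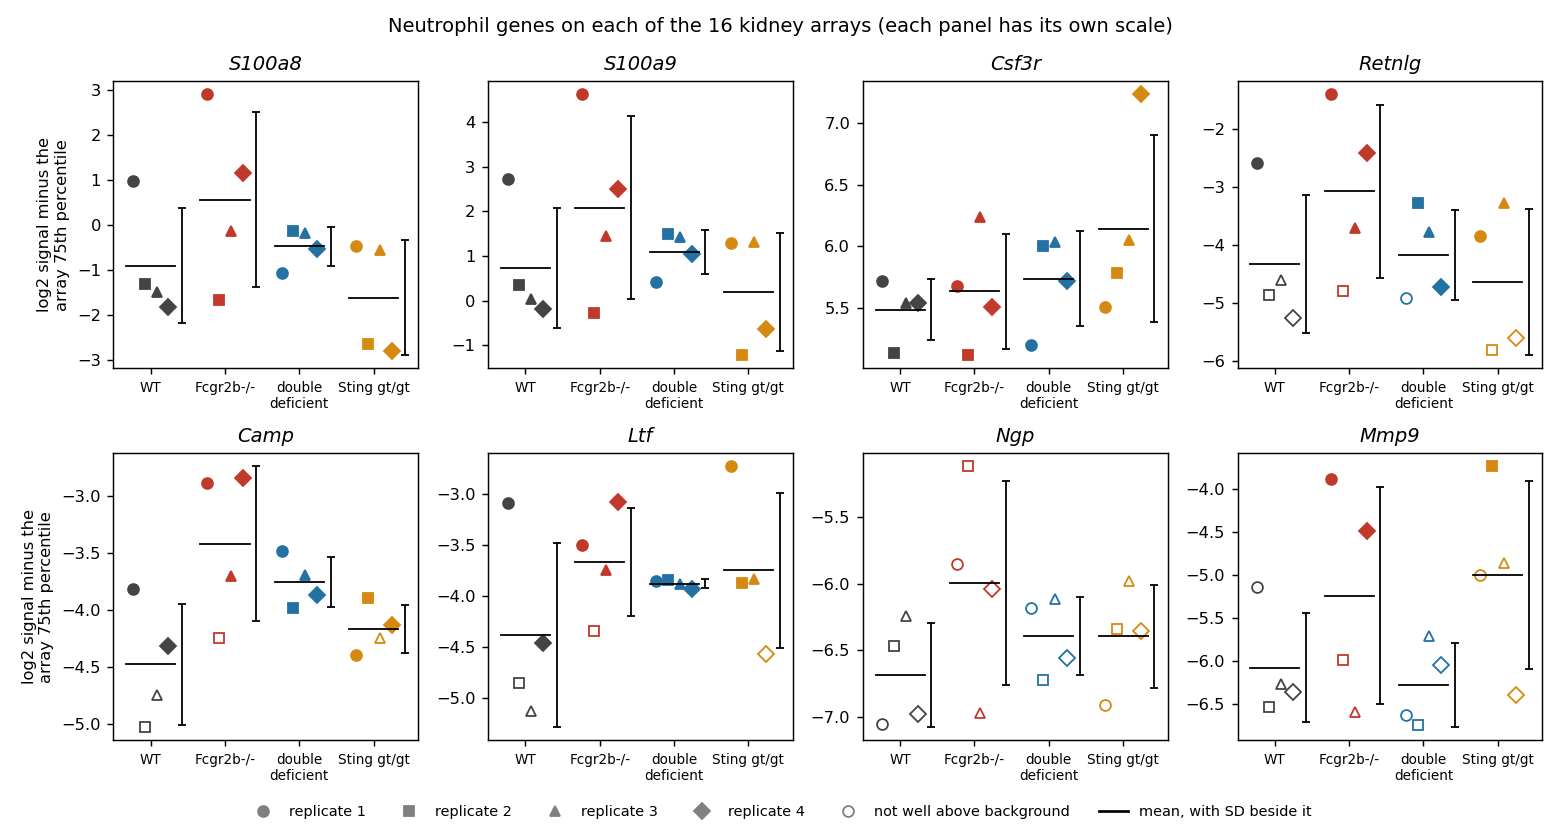
Levels of the 8 neutrophil genes on each of the 16 arrays, as log2 signal minus the 75th percentile of the array, by genotype. Each symbol is 1 mouse, filled where the probe was well above background and open where it was not, the horizontal line is the genotype mean and the vertical bar beside it the SD; the brighter of the 2 Mmp9 probes is drawn. S100a8, S100a9 and Retnlg share the same high mice (Fcgr2b-/- replicates 1 and 4 and wild-type replicate 1), Csf3r is highest in Sting gt/gt replicate 4 (7.24), and Ngp has no filled symbol.

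Csf3r encodes the receptor for G-CSF, through which neutrophil precursors multiply and mature. It was measured on every array and varied far less than the calprotectin genes, over 4.36-fold. The Csf3r signal was bright, from 5.11 to 7.24, and whether it comes from neutrophils was not tested. Wild-type kidneys gave 5.72, 5.14, 5.54 and 5.54, and Fcgr2b-/- kidneys gave 5.67, 5.11, 6.24 and 5.51. Double-deficient kidneys gave 5.2, 6.00, 6.03 and 5.72, and Sting gt/gt kidneys 5.51, 5.79, 6.05 and 7.24. The mouse with the most Csf3r, Sting gt/gt replicate 4, was the mouse with the least S100a8. Fcgr2b-/- replicate 1, which led in S100a8, S100a9 and Retnlg, had an unremarkable Csf3r level of 5.67. Csf3r was 0.15 ± 0.35 higher in Fcgr2b-/- than in wild-type kidneys (interval -0.60 to 0.90), and 0.66 ± 0.35 higher in Sting gt/gt than in wild-type kidneys (interval -0.09 to 1.42, limma adjusted p = 0.732). The ligand gene Csf3 was well above background on 0 of 16 arrays.

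Retnlg encodes resistin-like gamma, a secreted protein made by neutrophils of blood and bone marrow. It was well above background in 1 wild-type, 3 Fcgr2b-/-, 3 double-deficient and 2 Sting gt/gt mice. Its levels were -2.58, -4.85, -4.60 and -5.26 in wild-type kidneys, where replicate 1 alone was above background, and -1.39, -4.79, -3.70 and -2.40 in Fcgr2b-/- kidneys, where replicate 2 alone was not. Double-deficient kidneys gave -4.90, -3.27, -3.77 and -4.72, and Sting gt/gt kidneys -3.84, -5.81, -3.27 and -5.60. The 3 highest mice were those that led for S100a8. Retnlg was 1.25 ± 0.77 higher in Fcgr2b-/- than in wild-type kidneys (interval -0.39 to 2.90, limma adjusted p = 1.0).

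Ngp, Camp and Ltf encode proteins of the secondary granules: neutrophilic granule protein, the precursor of the antimicrobial peptide cathelicidin, and the iron-binding protein lactoferrin. Ngp was dim on all 16 arrays, between -7.05 and -5.12, and no change can be given for it. Camp gave -3.81, -5.03, -4.74 and -4.31 in wild-type kidneys and -2.88, -4.25, -3.70 and -2.84 in Fcgr2b-/- kidneys. Double-deficient kidneys gave -3.48, -3.98, -3.69 and -3.87, and Sting gt/gt kidneys -4.39, -3.89, -4.24 and -4.13. Wild-type replicates 2 and 3 and Fcgr2b-/- replicate 2 lay below the lowest signal counted as above background on their arrays (-4.56, -4.28 and -4.00). The Camp differences from wild-type given below therefore rest in part on dim signal. Of the tested genes Camp had the highest share of its sum of squares between genotypes, 50.7%, against 19.7% to 31.5% for the other 5. It was 1.06 ± 0.33 higher in Fcgr2b-/- than in wild-type kidneys and 0.72 ± 0.33 higher in double-deficient than in wild-type kidneys. The unadjusted limma p was 0.0057 for the first and 0.0445 for the second, and neither passed the adjustment over all probes (adjusted p = 0.887 and 1.0). The wild-type and Fcgr2b-/- mice overlapped, with wild-type replicate 1 above Fcgr2b-/- replicate 2, and the exact two-sided Mann-Whitney p for Camp was 0.0571, where 4 against 4 cannot go below 0.0286.

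Ltf stood at -3.09, -4.86, -5.13 and -4.47 in wild-type kidneys and at -3.50, -4.35, -3.74 and -3.08 in Fcgr2b-/- kidneys. The double-deficient mice lay close together at -3.85, -3.85, -3.89 and -3.93 (SD 0.04), and the Sting gt/gt mice at -2.73, -3.87, -3.84 and -4.57. Its highest mouse was Sting gt/gt replicate 1, not an Fcgr2b-/- mouse, and wild-type replicate 1 was about as high as Fcgr2b-/- replicate 4. Ltf was 0.72 ± 0.44 higher in Fcgr2b-/- than in wild-type kidneys (interval -0.22 to 1.65, limma adjusted p = 1.0). Wild-type replicates 2 and 3, Fcgr2b-/- replicate 2 and Sting gt/gt replicate 4 lay below the lowest signal counted as above background on their arrays.

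Mmp9 encodes gelatinase B, a protease of the tertiary granules that cuts basement membrane collagen. It had 2 probes. The brighter one was well above background in Fcgr2b-/- replicates 1 and 4 and in Sting gt/gt replicate 2, at -3.89, -4.48 and -3.73, and the dimmer one in the same 2 Fcgr2b-/- mice only, at -4.79 and -2.95. On all other arrays both were dim, between -7.28 and -4.86. Against the lowest signal counted as above background, the Fcgr2b-/- mean of each probe was not higher than in the genotypes where it was dim on every array, so no fold is given and Mmp9 was not tested.

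Fcgr2b-/- kidneys were compared with wild-type kidneys to ask what the lupus-prone genotype changes. All 6 tested neutrophil genes were higher on average in the Fcgr2b-/- mice, 4 of them (S100a8, S100a9, Retnlg and Camp) by at least 2-fold, where 43.4% of all 35628 tested probes were higher and 4.33% were at least 2-fold higher. The median log2 change of the 6 was 1.16, against -0.06 over all probes. With limma, 0 of the 6 passed an adjusted p under 0.05 with at least 2-fold, as 0.0505% of probes did (18 probes). At an unadjusted limma p under 0.05 Camp alone passed, where 3.35% of probes did, and 5 of 6 passed without wild-type replicate 1 and 4 of 6 without Fcgr2b-/- replicate 2. The Mann-Whitney test of the study, unadjusted and with at least 2-fold, called 0 of 6, where it called 0.404% of probes. The size of the difference rested on single animals. Without Fcgr2b-/- replicate 1, 0 of 6 were at least 2-fold higher, the median was 0.67 and S100a8 was 0.68 ± 0.78 higher. Without wild-type replicate 1, 5 of 6 were at least 2-fold higher, the median was 1.56 and S100a8 was 2.09 ± 0.85 higher, with a limma adjusted p of 0.814. With normexp background correction the median was 0.40. The arrays lay on 2 slides, and the median was 0.81 within the first and 1.14 within the second. In the second, Fcgr2b-/- replicate 3 alone stood against wild-type replicates 3 and 4.

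Double-deficient kidneys were compared with Fcgr2b-/- kidneys to ask what the loss of STING changes in the lupus-prone genotype. Of the 6 genes, 5 were lower in the double-deficient mice, as were 42.6% of probes, and Csf3r was 0.10 ± 0.35 higher. The largest differences were those of Retnlg, at -1.1 ± 0.77 (interval -2.74 to 0.55), S100a8, at -1.04 ± 0.86 (interval -2.86 to 0.79), and S100a9, at -0.99 ± 0.90 (interval -2.90 to 0.93). The first and second were at least 2-fold, as 2.63% of probes were in that direction. Camp and Ltf were lower by less, at -0.34 ± 0.33 and -0.21 ± 0.44. The median of the 6 was -0.66, against 0.06 over all probes. None passed the limma threshold for a call (0 of 6, and 0% of probes), and 0 passed at an unadjusted p under 0.05 (1.81% of probes). The Mann-Whitney test with at least 2-fold called 0 of 6 (0.115% of probes). Without Fcgr2b-/- replicate 1 the S100a8 difference was -0.25 ± 0.78, and 0 of 6 genes were at least 2-fold lower without Fcgr2b-/- replicate 1 or 4 or double-deficient replicate 1, whereas 3 of 6 were without Fcgr2b-/- replicate 2 or 3 or double-deficient replicate 2 or 3. At an unadjusted limma p under 0.05, 2 of 6 passed without Fcgr2b-/- replicate 2. Within the second slide, which holds 1 Fcgr2b-/- and 3 double-deficient mice, the median was -0.15, and within the first, which holds 3 and 1, it was -1.04.

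Double-deficient kidneys were also compared with wild-type kidneys. All 6 genes were higher in the double-deficient mice, by 0.16 ± 0.77 for Retnlg up to the 0.72 of Camp, 0 of them by 2-fold, where 50.6% of probes were higher and 0.87% at least 2-fold higher. The median was 0.39 against 0.00 over all probes. Limma called 0 of 6 (0% of probes), 1 of 6, Camp, had an unadjusted p under 0.05 (0.424% of probes), and the Mann-Whitney test with at least 2-fold called 0 (0.177% of probes). The sign of the median depended on the slide, at -0.56 within the first, which holds 1 double-deficient mouse, and 0.96 within the second. This comparison shares its mice with both of the above.

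Sting gt/gt and wild-type kidneys, which share the C57BL/6 background, were compared for the effect of STING alone. S100a8 was at -0.71 ± 0.86, S100a9 at -0.54 ± 0.90 and Retnlg at -0.31 ± 0.77 relative to wild-type, whereas Csf3r, Ltf and Camp were at 0.66 ± 0.35, 0.63 ± 0.44 and 0.31 ± 0.33. The median of the 6 was 0.00, as was that of all probes, with -0.44 within the first slide and 0.45 within the second. Limma called 0 of 6 (0% of probes), 0 of 6 passed at an unadjusted p under 0.05 (3.76% of probes), and the Mann-Whitney test with at least 2-fold called 0 (0.356% of probes). Leaving out wild-type replicate 1 turned S100a9 to 0.12 and Retnlg to 0.27.

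Between the 2 Sting gt/gt genotypes, double-deficient minus Sting gt/gt, S100a8 differed by 1.14 ± 0.86, S100a9 by 0.90 ± 0.90, Retnlg by 0.47 ± 0.77 and Camp by 0.41 ± 0.33, while Csf3r and Ltf lay at -0.41 ± 0.35 and -0.13 ± 0.44. Higher in double-deficient kidneys were thus 4 of 6 (51% of probes), and S100a8 alone was at least 2-fold higher (1.59% of probes). No call was made by limma (0 of 6, 0% of probes), 0 of 6 had an unadjusted p under 0.05 (3.05% of probes), and the Mann-Whitney test with at least 2-fold called 0 (0.483% of probes). The interaction, which asks whether the Fcgr2b difference depends on STING, was negative for all 6 genes, from -0.33 ± 1.21 for S100a8 to -0.85 ± 0.62 for Ltf, where it was negative for 48% of probes, with a median of -0.60 against 0.03. No interaction was called by limma (0 of 6, 0% of probes) and 0 of 6 had an unadjusted p under 0.05 (6.27% of probes). Over the 6 tested genes and all pairs of genotypes, 0 of 36 pairs had mice that did not overlap. The share of all probes without overlap was 1.24% between Fcgr2b-/- and wild-type, 1.02% between double-deficient and Fcgr2b-/-, 0.547% between double-deficient and wild-type, 2.04% between Sting gt/gt and wild-type, 1.04% between Fcgr2b-/- and Sting gt/gt and 2.13% between double-deficient and Sting gt/gt kidneys.

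**Figure D2:**
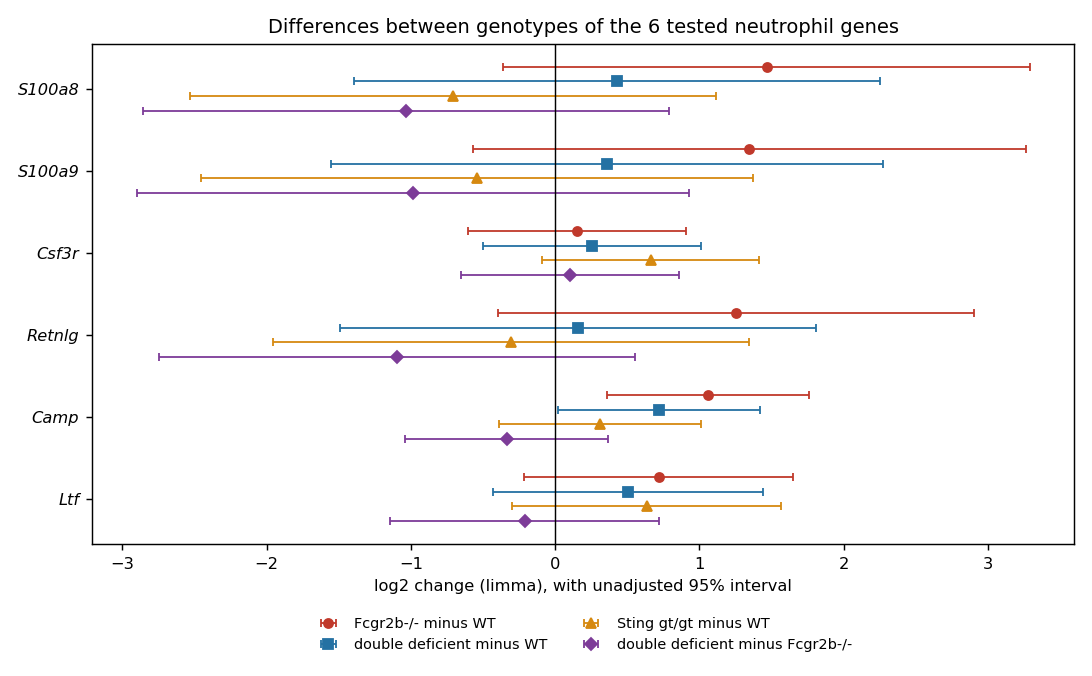
Log2 change (x axis) of the 6 tested neutrophil genes (y axis) in 4 comparisons of genotypes, with points for the limma estimate and bars for its 95% interval, unadjusted for the number of probes. The intervals of S100a8, S100a9 and Retnlg are wide and hold 0 in every comparison, and those that leave out 0 are Camp in Fcgr2b-/- minus wild-type (1.06) and in double-deficient minus wild-type (0.72).

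For 5 of the 6 tested genes most of the variation lay between mice of a genotype. For S100a8, S100a9, Csf3r, Retnlg and Ltf, 19.7% to 31.5% of the sum of squares lay between genotypes, against 50.7% for Camp. After genotype means were removed, S100a8 and S100a9 were correlated over the 16 mice with a Pearson r of 0.992 and a Spearman rho of 0.976 (permutation p = 7e-05 and 5e-05, adjusted over 15 pairs 0.00035 and 0.00025). S100a8 and Retnlg had an r of 0.961 and a rho of 0.965 (permutation p = 4e-05 and 3e-05, adjusted 0.0003 and 0.000225), and S100a9 and Retnlg an r of 0.958 and a rho of 0.953 (permutation p = 1e-05 and 2e-05, adjusted 0.00015 and 0.000225), where 1e-05 is the smallest that 100000 permutations can give. Without the 2 mice farthest from the median these were 0.996, 0.957 and 0.954. Within the first slide they were 0.998, 0.990 and 0.986, and within the second 0.998, 0.929 and 0.938 (8 mice each).

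Ltf followed these genes more loosely. Its r was 0.729 with S100a8 and 0.688 with S100a9 (rho 0.768 and 0.747, permutation p for r = 0.00902 and 0.0140, adjusted 0.0338 and 0.0421). Within the slides the first was 0.796 and 0.632 and the second 0.782 and 0.661. Both lost the adjusted threshold under quantile normalization (r = 0.619 and 0.532) and under median scaling (r = 0.653 and 0.593). Camp had an r of 0.574 with S100a8 (rho 0.374, permutation p for r = 0.109, adjusted 0.201), which was 0.729 within the first slide and -0.33 within the second. The pairs that passed the adjustment were 5 of 15 by r and 6 of 15 by rho, the additional one being Retnlg and Ltf (permutation adjusted p = 0.0297 for rho and 0.0502 for r). All values of an array share its scaling.

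Over the 16 mice no correlation of Csf3r with another of these genes passed the adjustment. Its r was 0.00 with S100a8 and 0.09 with S100a9 (rho -0.04 and 0.06, permutation p for r = 0.998 and 0.756, adjusted 0.998 and 0.872). With the mean of the other 5 it was -0.08, a value that, unlike those, keeps the differences between genotypes. The correlations of Csf3r within the slides were not alike, but each slide holds 8 mice and the difference between slides was not tested. Within the first, its r was 0.960 with Camp and between 0.616 and 0.700 with the other 4 genes, and within the second it was 0.246 with Camp and between -0.88 and -0.66 with the other 4. Without the 2 mice farthest from the median the r of Csf3r was 0.377 with S100a8 and 0.203 with Retnlg. It was -0.01 with S100a9, -0.13 with Camp and -0.06 with Ltf.

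**Figure D3:**
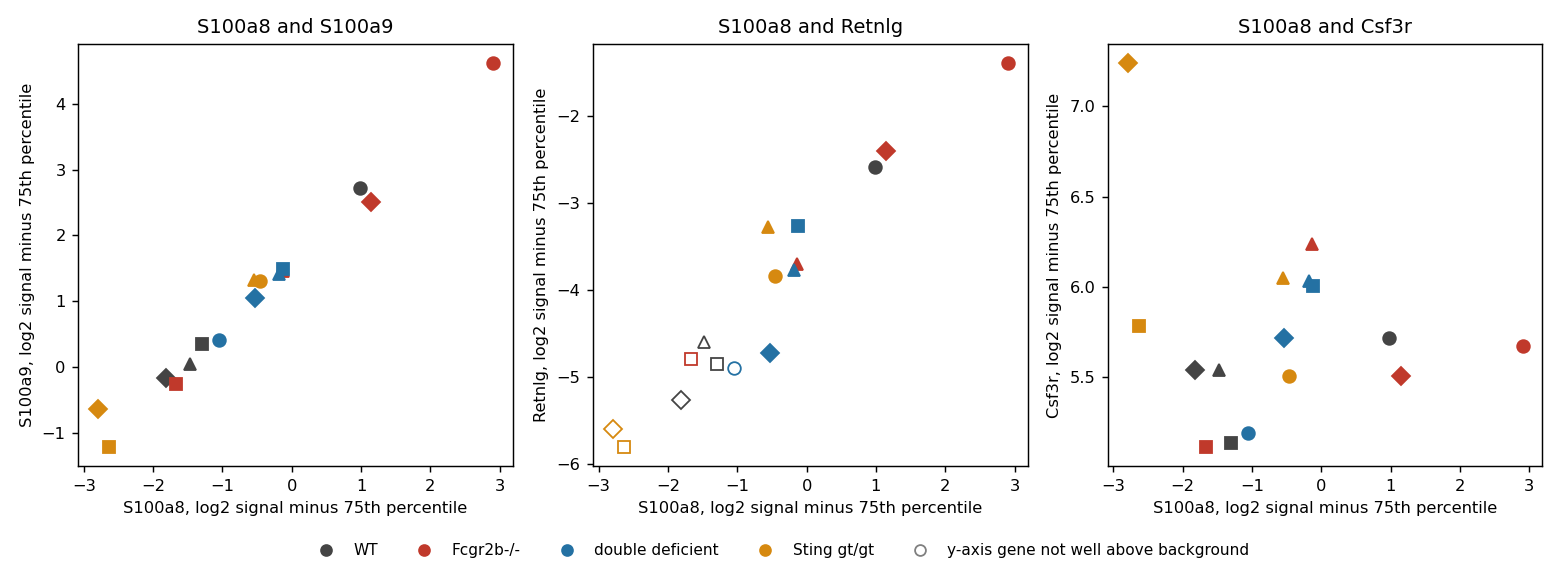
S100a9, Retnlg and Csf3r (y axes) against S100a8 (x axes) on each of the 16 arrays, all as log2 signal minus the 75th percentile of the array, with colors for genotypes and marker shapes for replicates as in the plot of levels by mouse; open symbols mark arrays where the y-axis gene was not well above background. S100a9 and Retnlg lie along a line with S100a8 that runs through all 4 genotypes (r = 0.992 and 0.961 after genotype means were removed), and Csf3r does not (r = 0.00).

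The mean of the 6 tested genes, each taken as its deviation from its own mean over the arrays, was highest in Fcgr2b-/- replicate 1 (1.86), Fcgr2b-/- replicate 4 (1.1) and wild-type replicate 1 (0.95). It was lowest in Sting gt/gt replicate 2 (-0.98), wild-type replicate 2 (-0.80) and Sting gt/gt and wild-type replicates 4 (both -0.79). The genotypes ranged from -0.74 to 1.86 in Fcgr2b-/-, from -0.32 to 0.34 in double-deficient, from -0.98 to 0.20 in Sting gt/gt and from -0.80 to 0.95 in wild-type mice. The arrays had 28441 to 35564 of 56605 probes well above background, and this number was correlated with the mean of the 6 genes (r = 0.588, rho 0.571, n = 16); its part in the result was not tested. The 5 other genes most like this mean, among 16388 tested genes over 16 arrays, were F13a1 (r = 0.936), the coagulation factor XIII subunit made by macrophages and platelets, Itgax (0.930), the CD11c integrin of dendritic cells and macrophages, Cybb (0.923), the heavy chain of the phagocyte NADPH oxidase, Gm9733 (0.921), and Pira2 (0.917), an activating immunoglobulin-like receptor of myeloid cells.

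Other genes of the neutrophil gave a divided picture. Of the primary granules, filled first in the bone marrow, Elane (neutrophil elastase) was well above background on 16 of 16 arrays but was lowest in Fcgr2b-/- replicate 1 (0.73), where the calprotectin genes were highest, and its mean was 2.07 ± 0.51 (SD, n = 4) in wild-type and 1.72 ± 0.76 in Fcgr2b-/- kidneys. Mpo (myeloperoxidase) was above background on 7 arrays, 1 wild-type and 2 of each other genotype, and was 0.53 ± 0.56 higher in Fcgr2b-/- than in wild-type kidneys. Prtn3 was above background on 3 arrays and Ctsg on 0. Of the 6 primary granule genes listed, 2 were tested, 1 was higher and 1 lower in Fcgr2b-/- kidneys, and 0 were called by limma. Over all probes 43.4% were higher and 0.0505% were called. The mean deviation of the 2 tested genes, Elane and Mpo, was correlated with that of S100a8 and S100a9 at r = -0.12. Of the 6, only Elane (0.73 to 2.56) was well above background on every array, and whether its signal comes from neutrophils was not tested.

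Of 11 other secondary and tertiary granule genes, 7 were tested, all 7 were higher in Fcgr2b-/- than in wild-type kidneys with a median of 2.09, and all 7 were lower in double-deficient than in Fcgr2b-/- kidneys with a median of -1.37. By limma 0 of 7 were called in either (0.0505% and 0% of probes), and 6 and 3 had an unadjusted p under 0.05 (3.35% and 1.81% of probes). Over all probes 43.4% were higher in the first comparison and 42.6% lower in the second, and both comparisons share the Fcgr2b-/- mice. The 3 largest differences were those of Lyz2 (lysozyme, 3.21 ± 0.80), Chil3 (a chitinase-like protein, 3.14 ± 0.95) and Hp (haptoglobin, 2.62 ± 0.88), all of which macrophages or other cells make as well. Lcn2, the siderophore-binding lipocalin of secondary granules that injured tubules also make, stood at 3.33, -0.22, -0.90 and 3.96 in Fcgr2b-/- mice and between -1.01 and 0.85 in the other 12. Lcn2 was thus high in the 2 Fcgr2b-/- mice that were highest in S100a8, but not in wild-type replicate 1 (-0.96), where S100a8 was also high. Lcn2 was 2.07 ± 0.85 higher in Fcgr2b-/- than in wild-type kidneys (limma adjusted p = 1.0).

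Of 24 genes of mature neutrophils, 19 were tested, 16 were higher in Fcgr2b-/- than in wild-type kidneys (median 1.23), and 2, Clec4e and Fpr1, were called by limma (adjusted p = 0.0102 for both). Over all probes 43.4% were higher and 0.0505% were called. Clec4e, a receptor for glycolipids and dead cells, was well above background in 4 of 4 Fcgr2b-/-, 4 of 4 double-deficient, 1 of 4 wild-type and 0 of 4 Sting gt/gt mice. Fpr1, the receptor for formylated peptides, was above background in the 8 Fcgr2b-deficient mice and in 0 of the others. Neither Clec4e nor Fpr1 would have passed the filter of 4 arrays without the Fcgr2b-deficient mice. Their calls are therefore not separate from that filter, and they rest on wild-type signals that were mostly dim. For both genes all 4 Fcgr2b-/- mice were above all 4 wild-type mice, whereas for S100a8 wild-type replicate 1 was above Fcgr2b-/- replicates 2 and 3. Clec4d, a partner of Clec4e, was well above background in 4 Fcgr2b-/-, 4 double-deficient, 2 Sting gt/gt and 1 wild-type mice and was not called (limma adjusted p = 0.133). The list ranged from genes measured on every array to genes near background. Trem1, a receptor that amplifies inflammatory signals, and Mcemp1 were well above background on 16 of 16 arrays, and neither was called. Cxcr2, the receptor for the neutrophil-attracting chemokines, was well above background on 1 array (Fcgr2b-/- replicate 1), and Ly6g had no named probe. Padi4, needed for neutrophil extracellular traps, was above background on 2 arrays, Fcgr2b-/- replicates 1 and 4. Cd177 was above background on 0. The name of neutrophil genes is therefore used here for the list, and not for a measured content of neutrophils.

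Ligands and growth factors of neutrophils were mostly dim. Of 11 genes 5 were tested, 4 were higher in Fcgr2b-/- than in wild-type kidneys, and 0 were called by limma, where 2 had an unadjusted p under 0.05. Over all probes 43.4% were higher in that comparison, 0.0505% were called and 3.35% had such a p. The same shares apply to the next 2 lists. Cxcl1 stood at 1.49, -4.53, -2.63 and -0.45 in Fcgr2b-/- kidneys and at -1.13, -4.04, -3.87 and -2.88 in wild-type kidneys, so that the same 3 mice were high. Cxcl2 was well above background in Fcgr2b-/- replicate 1 alone. The largest differences of the list were those of Il1b (3.2 ± 0.81), C5ar1, the receptor for complement C5a (2.47 ± 0.79, with 1 of 4 wild-type mice above background), and Cxcl1 (1.45 ± 0.99). Of 5 granulocyte transcription factors, all 5 were tested and higher, among them Cebpb (0.99 ± 0.38). By limma 0 were called, and 2, Cebpb and Spi1, had an unadjusted p under 0.05. Spi1 was dim in all wild-type mice, and well above background in 3 Fcgr2b-/- and 1 double-deficient mice. It thus passed the filter of 4 arrays only through Fcgr2b-deficient mice, and its place in these counts is not separate from that filter. Gfi1 was well above background on 5 of 16 arrays, and no size is given for Spi1 or Gfi1. Of 10 receptors, inhibitors and signalling partners of the 8 proteins, 9 were higher and 0 were called, with 5 at an unadjusted p under 0.05. They were led by Timp1, the inhibitor of Mmp9 (2.79 ± 0.96), Fpr2 (2.51 ± 0.54) and Socs3, the inhibitor of signalling by Csf3r (2.50 ± 0.70). Against the calprotectin genes these 3 lists had r of 0.831, 0.772 and 0.779 over the 16 mice, as a description.

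Markers of some other cells moved with the neutrophil genes, and those of others followed loosely or not at all. The correlations of lists use deviations from the mean of all 16 arrays, which keep the differences between genotypes. Of 12 monocyte and macrophage markers 11 were tested, 10 were higher in Fcgr2b-/- than in wild-type kidneys (median 2.17) with 0 called by limma and 9 at an unadjusted p under 0.05, and their mean deviation had an r of 0.812 with that of S100a8 and S100a9. Over all probes 43.4% were higher, 0.0505% were called and 3.35% had such a p. Mrc1, Adgre1 and Cd68 led, at 2.68 ± 1.05, 2.56 ± 0.78 and 2.31 ± 0.48. Summed over the 11 on the linear scale, in units of the 75th percentile signal, they reached 154 to 381 in wild-type, 206 to 351 in Fcgr2b-/-, 157 to 400 in double-deficient and 139 to 253 in Sting gt/gt mice, and all were above background on some array. Such a sum, also for red cells below, is weighted to its brightest probes and does not show the change of a typical marker. Of 12 eosinophil, basophil and mast cell genes 4 were tested, with Ear2 (4.57 ± 0.68) called by limma (adjusted p = 0.0305), and the defining genes Epx, Ccr3 and Mcpt8 were above background on 0 arrays. T cell markers had an r of 0.683 with the calprotectin genes, platelet markers 0.498, B and plasma cell markers 0.379, tubular injury genes 0.605 and kidney tubule and podocyte genes -0.63. Red cell genes, which rise with blood left in the kidney, had an r of 0.293. According to the study the kidneys were not perfused, so blood and kidney tissue cannot be told apart as the source of these RNAs. Hba-a1 was 9.16 ± 0.48 in wild-type and 8.90 ± 0.07 in Fcgr2b-/- kidneys, and the summed red cell level was 1154 to 1865 in wild-type, 1074 to 1219 in Fcgr2b-/-, 780 to 1585 in double-deficient and 879 to 2584 in Sting gt/gt mice. The part of these cells in the levels of the neutrophil genes was not tested.

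**Figure D4:**
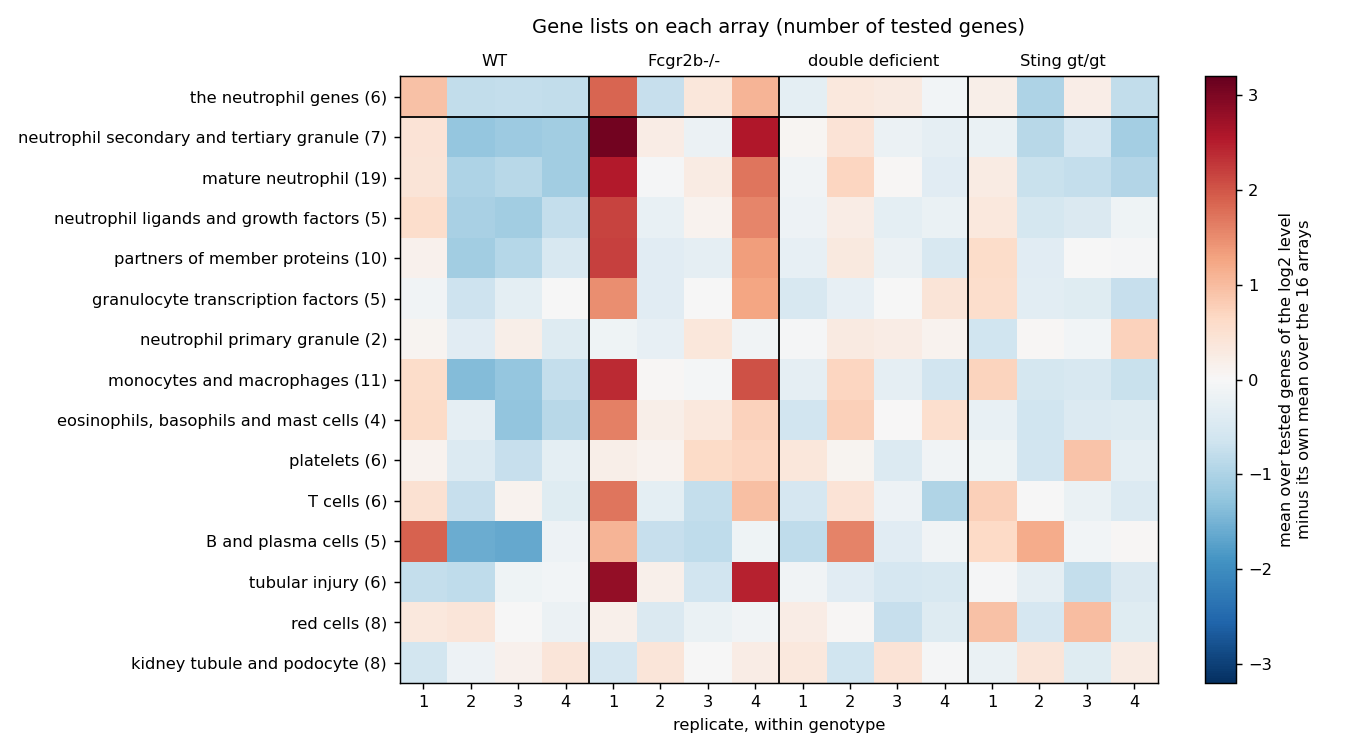
Mean deviation (color, log2, red for above and blue for below the mean of the 16 arrays) of the neutrophil genes and of 14 other gene lists (rows, with the number of tested genes) on each array (columns, by genotype and replicate). Fcgr2b-/- replicates 1 and 4 are the highest arrays in the lists of secondary granules, mature neutrophils, ligands, partners, transcription factors, monocytes and tubular injury, wild-type replicate 1 is high for the neutrophil genes (0.95), and the red cell, kidney and primary granule lists do not share this pattern.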

How the data were processed

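RNA from the kidneys of 16 mice (4 per genotype, 100 ng each) was labelled with Cy3 and hybridized to one-color arrays. The scanner files deposited by the authors hold processed intensity values from Agilent Feature Extraction 11.0 (submitters' processing notes), background-subtracted and unscaled between arrays. A second table deposited by the authors holds log2 values of unstated normalization and served as an alternative. Genotypes and replicate numbers came from the labels. The number of arrays limits the precision.

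Control and outlier spots were dropped, spots of a probe averaged, and each array's 75th percentile subtracted on the log2 scale. The software was Python 3.11.15 with pandas 2.3.3, numpy 2.4.6, scipy 1.17.1 and matplotlib 3.10.9, and R 4.3.3 with limma 3.58.1 and statmod 1.5.0. Of 56605 probes, the 35628 well above background on at least 4 of 16 arrays entered lmFit and eBayes, with 1 coefficient for each genotype. Calls needed a Benjamini-Hochberg adjusted p under 0.05 over all probes and at least 2-fold. The study's own test, a two-tailed Mann-Whitney test, was an alternative. A gene is given by its brightest tested probe, named through its accession in a RefSeq table of GRCm38.p6. The scripts were tested on simulated data. Correlations between genes used deviations from genotype means and 100000 two-sided permutations within genotypes, and an array alone in its genotype on a slide has no deviation within that slide.

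The alternatives were normexp (offset 50, on the median spot signal), quantile and median scaling, the deposited table, no filter, a fit of just both groups at issue, a filter on all 16 arrays, the Mann-Whitney test adjusted and unadjusted, a trended robust eBayes, no fold threshold, the median probe, a slide block, single slides, a replicate block, a random block by the number that opens each sample's description (of unstated meaning, and shared by wild-type replicates 3 and 4 and, in both cases, by 1 Fcgr2b-/- and 1 double-deficient mouse), and each array left out. The genes named are the 8 members, up to 3 per list with the largest change between Fcgr2b-/- and wild-type, a fixed set (Lcn2, Ly6g, Cxcr2, Elane, Mpo, Csf3, Cxcl1, Cxcl2, Hba-a1, Fcgr2b), and the 5 genes most like the members. Prtn3, Ctsg, Cd177, Padi4, Trem1, Mcemp1, Epx, Ccr3 and Mcpt8 were named after their values were seen. The members and the lists were chosen with earlier results of these data known.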

Additional observations from a re-analysis of the deposited data

How the results depend on the processing

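The count of called neutrophil genes was 0 under every alternative run, which for the interaction did not include the Mann-Whitney test. The median log2 change moved from its main value by less than the pooled SD of mice of a genotype (1.1). That SD is one of single mice and not of a difference between means. It is close to the largest median itself (1.16 in Fcgr2b-/- minus wild-type), so staying within it does not show that a median is stable. The median changed sign in double-deficient minus wild-type (-0.56 within the first slide) and, from a value near 0, in Sting gt/gt minus wild-type. With 1 array left out, the median ranged from 0.67 to 1.58 for Fcgr2b-/- minus wild-type, -1.14 to -0.16 for double-deficient minus Fcgr2b-/-, 0.20 to 0.94 for double-deficient minus wild-type, -0.21 to 0.40 for Sting gt/gt minus wild-type, 0.25 to 0.65 for double-deficient minus Sting gt/gt, and -1.07 to -0.35 for the interaction. Under quantile and under median scaling, 3 of 15 correlations passed by r in place of 5. With the description number as a random block, 2 of 6 genes had an unadjusted limma p under 0.05 in double-deficient minus Fcgr2b-/-, in place of 0. Median scaling moved the median of all probes in Fcgr2b-/- minus wild-type to -0.21. The 18 probes called in that comparison became 5 with normexp, 7 in the authors' table, 3 with the description number as a random block (a number of unstated meaning that some mice of different genotypes share), 0 when only those groups were fitted, 0 with the filter on all 16 arrays, 67 and 0 within the first and second slide, and 0 to 37 with 1 array left out.

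Of the values of single genes under the alternatives, 36 changed sign and 1122 did not change sign or side. In Fcgr2b-/- minus wild-type, Csf3r was -0.0064 with median scaling and -0.052 to 0.32 with 1 array left out. In double-deficient minus Fcgr2b-/-, Csf3r was -0.012 with quantile scaling, -0.0026 in the authors' table, -0.22 with the slide as a block, -0.24 and -0.32 within the slides and -0.069 to 0.31 with 1 array left out, and Ltf was 0.051 with the slide as a block. In double-deficient minus wild-type, Retnlg was -0.085 with normexp, -0.047 with the description number as a block, -1.18 within the first slide and -0.15 to 0.74 with 1 array left out, and within the first slide Csf3r, S100a8 and S100a9 were -0.23, -0.89 and -1.12. In Sting gt/gt minus wild-type, Retnlg was 0.49 and S100a9 0.41 within the second slide, and with 1 array left out they were -0.76 to 0.27 and -0.92 to 0.12. In double-deficient minus Sting gt/gt, Ltf was 0.015 with quantile scaling, 0.019 in the authors' table, 0.0017 with the slide as a block, 0.31 within the second slide and -0.40 to 0.21 with 1 array left out, and Retnlg was -0.032 with normexp and -0.076 within the first slide. The interaction of S100a8 was 0.0095 with the description number as a block and -1.07 to 0.45 with 1 array left out, and that of S100a9 was -1.23 to 0.40. The cause was not tested.

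With the replicate number as a block, the median was 1.16 in Fcgr2b-/- minus wild-type, 0 neutrophil genes were called, and 16 probes were called in all. Whether the numbers pair the mice was not settled. Of 24 same-numbered pairs, 11 had a correlation of deviations over 0.1 (range -0.60 to 0.69). Pairs with different numbers were not set beside them, so these values cannot decide it.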
